A study of Mus musculus with 3 samples.

Results

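The 4 mouse genes Scd1, Scd2, Scd3 and Scd4 encode the stearoyl-CoA desaturases, and they were examined in RNA-seq libraries of c2c12 myoblasts differentiated on 3 culture substrates. The members were selected by gene symbol, 4 of 23238 symbols in the count files, with the high GelMA-PSS count of Scd4 already known. Their values between substrates are therefore a description, and no difference was tested. All cells belonged to c2c12, an immortalized mouse line whose myoblasts form myotubes by fusion once serum is reduced. The TCP group was kept on a tissue culture plate, the GelMA group on a hydrogel of methacrylated gelatin, and the GelMA-PSS group on a hydrogel of 15% methacrylated gelatin mixed with 1% poly(sodium 4-styrenesulfonate), a sulfonated polymer used as a mimic of heparin. The label gives the 15% for GelMA-PSS only, and the study's methods state it for both hydrogels. All groups shared the same myogenic induction medium with horse serum for 2 days. Each group is 1 library of 1 cell line, so no difference has a replicate error, and a difference between substrates cannot be told apart from a difference between cultures.

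Stearoyl-CoA desaturases sit in the membrane of the endoplasmic reticulum and place a double bond at carbon 9 of saturated fatty acyl-CoAs, which yields the oleate and palmitoleate used in membrane phospholipids, triglycerides and cholesteryl esters. The electrons come from NADPH or NADH through cytochrome b5 and its reductases. Mice carry a cluster of paralogs. Scd1 is known from liver, adipose tissue and sebaceous glands, Scd2 from brain and many other tissues, Scd3 from skin and the Harderian gland, and Scd4 from heart. Scd1 is a well-known target of the lipogenic transcription factor SREBP-1c and of the liver X receptors.

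In GENCODE vM21 on GRCm38, the genes lie side by side on chromosome 19. Scd3 runs from 44203269 to 44244016, Scd2 from 44293674 to 44306864 and Scd4 from 44333092 to 44346743 on the plus strand, and Scd1 runs from 44394455 to 44407879 on the minus strand. Each chosen transcript has 6 exons. Their lengths are 4832 bases for Scd1, 5455 for Scd2, 3489 for Scd3 and 3306 for Scd4, and between 55.9% of the transcript in Scd4 and 71.8% in Scd1 lies after the coding sequence. The coding sequences have 1065, 1074, 1077 and 1059 bases without the stop codon. Over aligned bases, Scd1 and Scd3 are 91.5% identical, Scd1 and Scd2 90.3%, and Scd2 and Scd3 88.3%. Scd4 is the most distant member, with 85.1% identity to Scd1, 84.6% to Scd3 and 83.9% to Scd2.

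How alike the paralogs are over the length of 1 sequencing read is shown by the longest run that Scd1 and Scd4 share. The run has 116 bases, of which the first are printed, up to the read length stated in the methods. In Scd4 the printed stretch lies in exon 4, at chr19:44338922-44339022 on the plus strand. In Scd1 it lies at chr19:44401786-44401886 on the minus strand, in Scd2 at chr19:44299621-44299721 and in Scd3 at chr19:44235783-44235883, both on the plus strand. Capitals mark bases that differ from Scd4. A read of Scd1 that covers this stretch alone cannot be told from a read of Scd4, and the matches in Scd2 and Scd3 each have 1 mismatch.
Scd4: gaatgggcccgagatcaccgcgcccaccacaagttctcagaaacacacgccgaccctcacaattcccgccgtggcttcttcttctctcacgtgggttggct
Scd1: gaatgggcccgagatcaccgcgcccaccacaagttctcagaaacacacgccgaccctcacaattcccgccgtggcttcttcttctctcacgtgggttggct
Scd2: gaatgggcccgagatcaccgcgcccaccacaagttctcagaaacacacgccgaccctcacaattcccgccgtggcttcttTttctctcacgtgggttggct
Scd3: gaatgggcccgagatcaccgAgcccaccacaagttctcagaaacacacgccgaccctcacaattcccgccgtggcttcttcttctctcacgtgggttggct

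The first coding bases of Scd4 over the same length, from exons 1 and 2 between 44333492 and 44334070 of chromosome 19, show the opposite case. The best match in Scd1 without gaps has 43 mismatches, again in capitals.
Scd4: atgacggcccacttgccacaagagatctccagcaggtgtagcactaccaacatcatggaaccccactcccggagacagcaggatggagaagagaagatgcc
Scd1: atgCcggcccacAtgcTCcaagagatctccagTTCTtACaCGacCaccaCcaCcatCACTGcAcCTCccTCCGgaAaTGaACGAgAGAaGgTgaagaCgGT

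Such stretches were counted along the whole transcripts, because the authors' counting could have assigned reads of one paralog to another. Of the 3206 windows of read length in the Scd4 transcript, 16 occur without mismatch in Scd1 and 0 in Scd2 or Scd3. With up to 2 mismatches, 72 windows, or 2.25%, match any other member. For Scd3 these windows make up 5.13%, for Scd1 5.52% and for Scd2 4.97%. Outside the family, 1 annotated gene shares exact windows with a member, the pseudogene AC123853.3 between Scd3 and Scd2, with 25 windows of Scd1 and 24 of Scd3. That pseudogene has no line in the count files. The antisense gene AC125101.1 overlaps Scd3 on the other strand and has no line either. Whether strand was used in counting is not given in the sources used here, and without it the reads of this pair cannot be told apart.

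The libraries had between 87071144 and 192171443 counts, and 3 counts, taken as the limit of detection, correspond to at most 0.0330 CPM. A CPM value is a gene's count divided by the library total and expressed for a total of 1e6 counts. All levels below were scaled with TMM factors, which adjust each library total for the composition of its RNA. Differences are on the scale of log2(CPM + 1), and a difference of more than 2-fold on this scale was the threshold. Intervals are 95% intervals that cover counting error only. Whether each mate of a read pair was counted separately is not stated in the sources used here, and the intervals are too narrow if so. Defining myoblast and myotube markers were present, with 8 of 8 above 1 CPM in at least 1 library and a summed level of 11075 to 12939 CPM. Most of this sum was Acta1 and Des. By any amount, Myod1, Myf5 and Cdh15 were higher on GelMA-PSS than on both controls. Tmem8c, Acta1 and Ckm were lower than both, and Myog and Des lay between the controls. Of the adipocyte, hepatocyte, sebocyte and keratinocyte, cardiomyocyte and macrophage markers, the summed level was highest for the cardiomyocyte list, at 459.7 CPM on TCP, 147 on GelMA and 54.1 on GelMA-PSS, most of it Myh6. Of the other cardiomyocyte markers, Nppb was higher on GelMA-PSS, with 1.56 CPM on TCP, 1.44 on GelMA and 4.89 on GelMA-PSS, Ryr2 had 1.40, 1.58 and 0.800 CPM, Nppa had 2 to 21 counts, and Myl7 was at 0 in every library. The adipocyte markers Adipoq, Lep, Fabp4, Plin1, Cidec, Retn and Cfd had 0 to 8 counts in every library, and of that list the regulator Pparg alone passed 1 CPM. The sebocyte and keratinocyte list had 2.72 to 4.30 CPM in sum, with Awat1 at 0 in every library, and the hepatocyte list at most 0.0110 CPM with Apoa1 and Fgb at 0. The macrophage list had 1.69 to 1.86 CPM. The part of other cell types in the values below was not tested. In bulk RNA, fewer cells of a type and less RNA per cell cannot be told apart.

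Scd1 and Scd2 carried nearly all of the family's counts on every substrate, and both were somewhat lower on GelMA-PSS before any correction for transcript length and GC content. Scd2 had a level of 1179 CPM on TCP, 1005 on GelMA and 844 on GelMA-PSS. Its counts were 143536, 91369 and 152840. For Scd1, the level was 577 CPM on TCP, 563 on GelMA and 461 on GelMA-PSS, from 70282, 51164 and 83596 counts. Both genes were thus highest on TCP and lowest on GelMA-PSS, and for both the counting intervals of the 3 libraries did not overlap, although for Scd1 TCP and GelMA were close (572.9 to 581.5 and 558.2 to 567.9 CPM).

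The differences of the major members were small. On GelMA-PSS, Scd2 differed by -0.25 on the log2 scale from GelMA and by -0.48 from TCP, and Scd1 by -0.29 and -0.32. Over all 13169 tested genes, which are those with at least 1 CPM in 1 library or more, the central 50% of the differences spanned -0.30 to 0.34 from GelMA and -0.31 to 0.35 from TCP. Both genes were inside this range against GelMA and below it against TCP. These differences also moved with a joint correction for transcript length and GC content. With each difference corrected by loess for transcript length and GC content, Scd1 was at -0.08 against GelMA and -0.16 against TCP, and Scd2 was at 0.07 against GelMA, with the sign turned, and -0.23 against TCP. The parts of length and of GC content in these differences were not separated or tested further.

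Scd3 was higher on GelMA-PSS. It had 1020 counts on TCP, 1039 on GelMA and 5859 on GelMA-PSS, at levels of 8.38 CPM (7.88 to 8.91), 11.4 CPM (10.8 to 12.2) and 32.3 CPM (31.5 to 33.2). The GelMA-PSS library stood apart from both controls, while GelMA lay above TCP by a smaller step. The ratio of CPM was 2.83 against GelMA (counting interval 2.65 to 3.02) and 3.86 against TCP (3.61 to 4.13), with 1.36 for GelMA against TCP (1.25 to 1.49).

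The largest difference of the family was in Scd4. With 221 counts on TCP and 216 on GelMA, Scd4 had a level of 1.81 CPM (1.59 to 2.07) and 2.38 CPM (2.08 to 2.72). On GelMA-PSS it had 8259 counts and 45.6 CPM (44.6 to 46.6). The controls were both close to the limit of 1 CPM, although far above the limit of detection, and the GelMA-PSS library had 19.2 times the level on GelMA (16.8 to 22.1) and 25.1 times the level on TCP (22.0 to 28.8). The ratio of GelMA to TCP was 1.31 (1.08 to 1.59). On the log2(CPM + 1) scale, which understates changes of genes this low, the differences were 3.79 against GelMA and 4.05 against TCP. The level of Scd4 was at rank 11999 of 13169 tested genes on TCP, 11727 on GelMA and 4453 on GelMA-PSS.

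**Figure D1:**
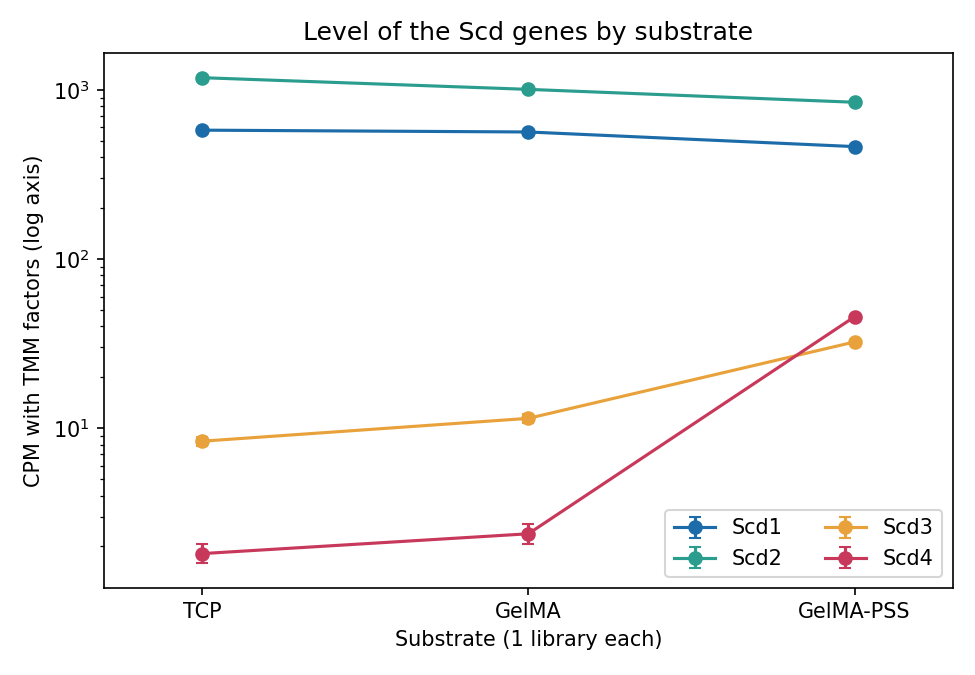
Level of each Scd gene (CPM with TMM factors, log axis) in the 1 library of each substrate, with bars for the 95% counting interval. Scd1 and Scd2 stay between 461 and 1179 CPM, whereas Scd4 goes from 1.81 CPM on TCP and 2.38 on GelMA to 45.6 on GelMA-PSS and there lies above Scd3.

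The length and GC correction left the minor members nearly where they were. The corrected differences were 1.45 against GelMA and 1.87 against TCP for Scd3, and 3.78 and 4.06 for Scd4. Of the 4 members, 2 were higher on GelMA-PSS than on both controls by more than 2-fold, Scd3 and Scd4. Over all tested genes this share was 1.37%, with 1.77% higher than on GelMA and 3.72% higher than on TCP. None of the members (0 of 4) was lower than both controls by more than 2-fold, against 1.16% of all tested genes. Between GelMA and TCP, 0 of 4 members and 1.00% of all tested genes were apart by more than 2-fold in either direction. Since the high value of Scd4 was known when the family was chosen, nothing is read from these counts.

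**Figure D2:**
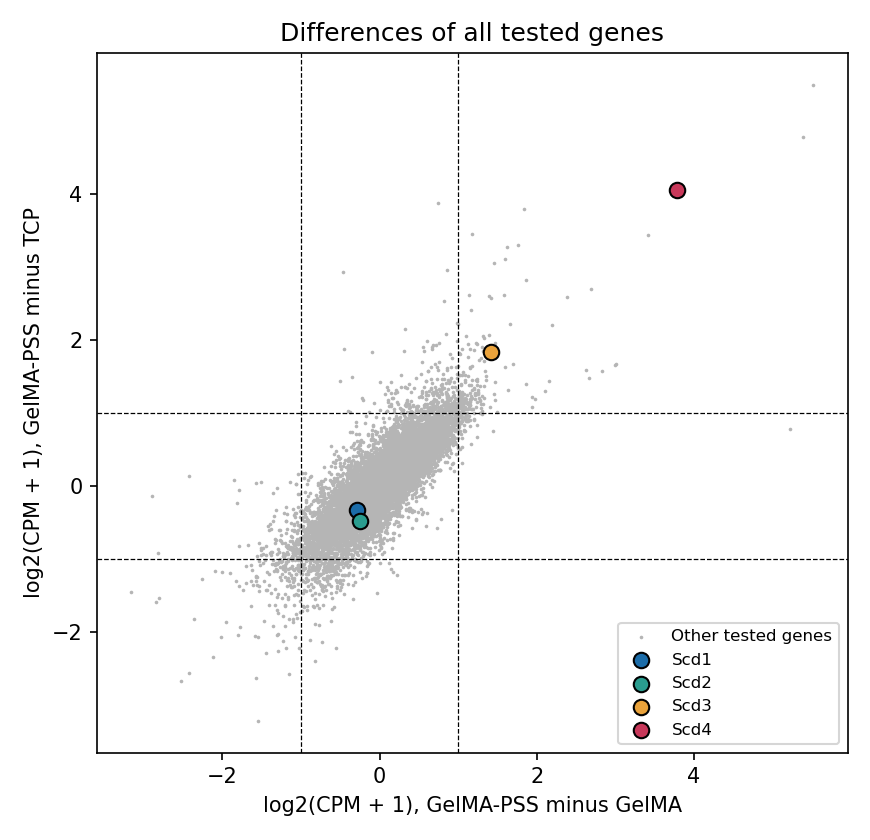
Difference in log2(CPM + 1) of GelMA-PSS from GelMA (x axis) and from TCP (y axis) for 13169 tested genes, with dashed lines at 2-fold. Scd4, at 3.79 and 4.05, and Scd3, at 1.42 and 1.83, lie in the upper right, and Scd1 and Scd2 lie inside the cloud of all genes.

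The summed family did not follow its minor members. The 4 genes together had a level of 1766 CPM on TCP, 1582 on GelMA and 1383 on GelMA-PSS, which is 0.180%, 0.165% and 0.130% of the library counts. The sum on GelMA-PSS was 0.874 times that on GelMA (counting interval 0.868 to 0.880) and 0.783 times that on TCP (0.779 to 0.788). In absolute terms, Scd4 was 43.2 CPM above GelMA and Scd3 20.9 CPM above it, while Scd2 was lower by a difference of -162 CPM and Scd1 by -102 CPM. The summed level was therefore set by Scd1 and Scd2, whose differences depended on the length and GC correction as given above.

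The shares within the family showed the change in composition without any scaling between libraries. Scd2 took 66.7% of the family's counts on TCP, 63.5% on GelMA and 61.0% on GelMA-PSS. Scd1 took 32.7%, 35.6% and 33.4%. The share of Scd3 was 0.474% on TCP (0.446 to 0.504), 0.723% on GelMA (0.680 to 0.768) and 2.34% on GelMA-PSS (2.28 to 2.40). The share of Scd4 was 0.103% (0.0901 to 0.117), 0.150% (0.131 to 0.172) and 3.30% (3.23 to 3.37). Scd3 and Scd4 together thus went from 0.577% on TCP and 0.873% on GelMA to 5.63% on GelMA-PSS.

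**Figure D3:**
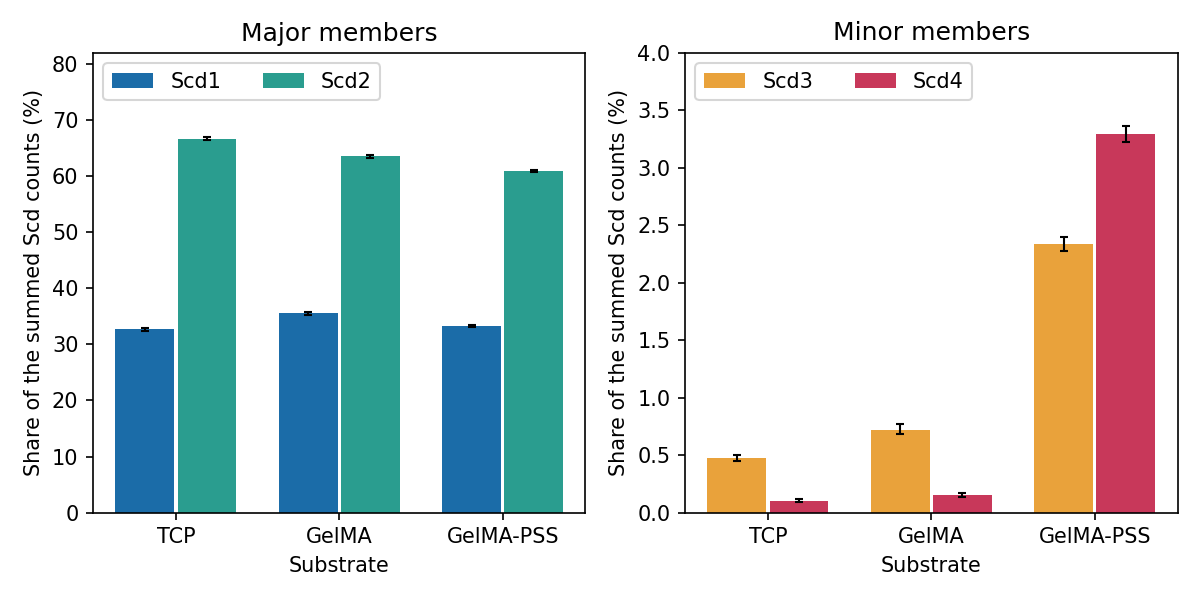
Share of each gene in the summed counts of the 4 Scd genes (%), for the major members on the left and the minor members on the right, with bars for the 95% Wilson interval. Scd4 takes 0.103% on TCP, 0.150% on GelMA and 3.30% on GelMA-PSS, and the shares of Scd3 are 0.474%, 0.723% and 2.34%.

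Ratios between members gave the same picture. The count of Scd1 over that of Scd2 was 0.490 on TCP, 0.560 on GelMA and 0.547 on GelMA-PSS, which is a small difference between the hydrogels. The count of Scd4 over that of Scd3 was 0.217, 0.208 and 1.41. Levels of different genes were compared per length of transcript. Per kilobase, the order on TCP and on GelMA was Scd2, Scd1, Scd3 and Scd4, with 2.40 CPM per kilobase for Scd3 and 0.549 for Scd4 on TCP and 3.28 and 0.719 on GelMA. On GelMA-PSS, Scd2 and Scd1 came first with 155 and 95.5 CPM per kilobase, and Scd4, with 13.8, was above Scd3, with 9.27.

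The shared windows set a scale for the minor members' counts. If every read from windows of the other members within 2 mismatches of Scd4 had been counted for Scd4, with even coverage, this would give 2903 counts on TCP, 1945 on GelMA and 3307 on GelMA-PSS. The 221 and 216 counts of the controls were below these values by far, and the 8259 counts on GelMA-PSS were 2.50 times the value for that library. For Scd3 the same sum was 6851 on TCP, 4575 on GelMA and 7749 on GelMA-PSS, and the observed counts were below it in all 3 libraries. These sums depend on the limit of 2 mismatches. Windows of Scd1 that match Scd4 make up 1.39% at that limit and 4.69% with up to 5 mismatches. For Scd2 the shares are 1.33% and 2.91%, and for Scd3 1.95% and 6.23%. A sum for Scd4 on GelMA-PSS formed the same way from the shares at 5 mismatches would be larger than the 8259 observed counts. Unscaled counts on GelMA-PSS were 1.19 times those on TCP for Scd1, 1.06 for Scd2, 5.74 for Scd3 and 37.4 for Scd4. Against GelMA the ratios were 1.63, 1.67, 5.64 and 38.2. The part of misassigned reads in these counts was not tested. Where on the transcripts the reads lay was not analysed here, since the files hold 1 count per gene.

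Genes beside the cluster were read to see whether the high values extended past it. Of the 5 nearest protein-coding genes on each side, 9 had a line in the files and 6 passed 1 CPM, and no protein-coding gene lies between the members. Among these 6, 0 were more than 2-fold apart from either control. Over all tested genes, 1.77% were higher than on GelMA and 3.72% higher than on TCP by more than 2-fold. With shares this small, 0 of 6 does not show whether high values extend past the cluster. The differences of the 6 genes from GelMA ran from -0.74 to 0.66 with a median of 0.30, without correction for length and GC content. The median over all tested genes was 0.03. On the side of Scd3, Bloc1s2, which encodes a subunit of a complex for lysosome-related organelles, was at 0.66 against GelMA and 0.48 against TCP. Erlin1, the gene of an endoplasmic reticulum protein that acts in sterol sensing, was at 0.37 and 0.49. Chuk, the gene of the kinase IKK-alpha, was at -0.07 and -0.08, and Cwf19l1 was at 0.23 and 0.18. On the side of Scd1, the respiratory complex I gene Ndufb8 was at 0.52 and 0.51, and Hif1an, the gene of an asparaginyl hydroxylase acting on HIF-1 alpha, was at -0.74 and -0.82. Pkd2l1, Wnt8b and Sec31b stayed under 1 CPM, with 0 to 57 counts per library, and Gm20538 had no line. Within the cluster, Scd2 lies between Scd3 and Scd4, and it was not higher on GelMA-PSS without the correction.

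**Figure D4:**
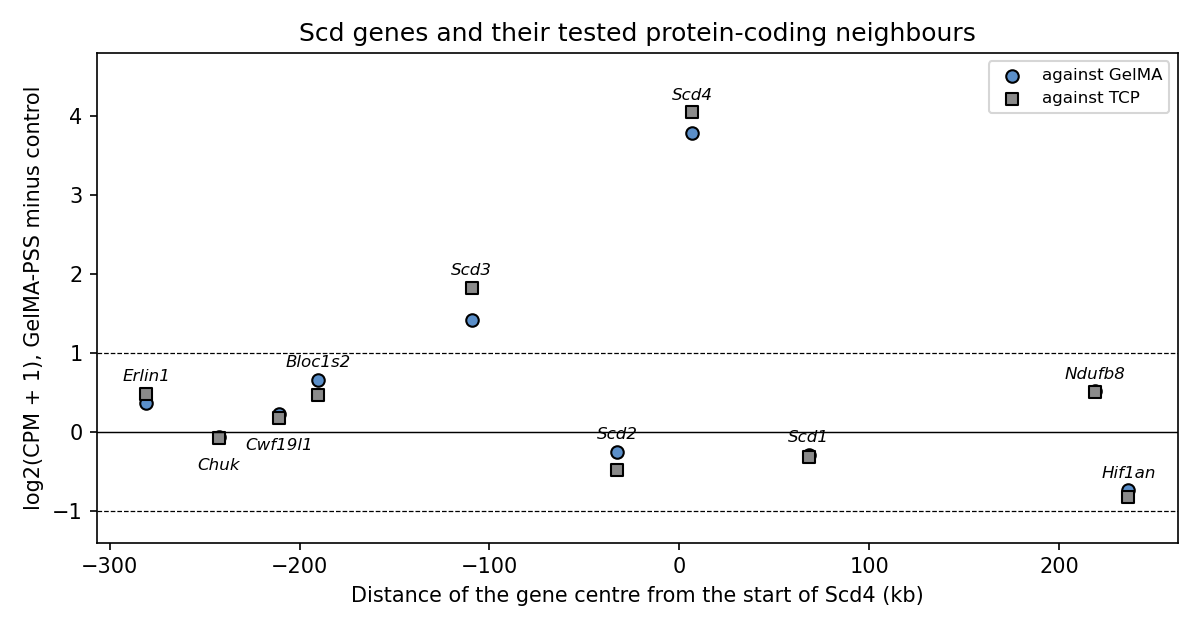
Difference in log2(CPM + 1) of GelMA-PSS from GelMA (circles) and from TCP (squares) for the Scd genes and the 6 tested neighbours, by distance of the gene centre from the start of Scd4 in kilobases, with dashed lines at 2-fold. Scd3 and Scd4 lie above the upper line, Scd2 between them lies below 0 in these values without the length and GC correction, and the neighbours run from -0.82 to 0.66.

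The promoter windows of the 2 members that were higher are given, and these genes are separated by Scd2, which was not. They are from RefSeq on GRCm38.p6 and hold 250 bases before and 50 after the start annotated there, on the plus strand. Windows were available here for 2 of the 4 members only. Whether Scd1 and Scd2 hold the same letters was not examined. Capitals mark the longest runs of letters that the windows share, 2 runs of 9 bases. The first begins 220 bases before the start in Scd3 and 221 bases before it in Scd4, and the second 46 and 32 bases before it. The window of Scd3 is chr19:44203038-44203337, and that of Scd4 is chr19:44333076-44333375. The GENCODE transcript of Scd4 begins at 44333092, near the upstream end of this window, and has 400 bases before its coding sequence. Most of the Scd4 window, with both runs, therefore lies in exon 1 of that transcript and not before it. The GENCODE start of Scd3, 44203269, is close to its RefSeq start.
Scd3: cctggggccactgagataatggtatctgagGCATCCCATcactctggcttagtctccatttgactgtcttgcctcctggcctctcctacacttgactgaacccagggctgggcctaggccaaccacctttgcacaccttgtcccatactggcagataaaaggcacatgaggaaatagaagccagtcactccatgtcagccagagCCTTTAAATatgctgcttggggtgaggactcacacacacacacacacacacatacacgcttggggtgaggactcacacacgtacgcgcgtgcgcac
Scd4: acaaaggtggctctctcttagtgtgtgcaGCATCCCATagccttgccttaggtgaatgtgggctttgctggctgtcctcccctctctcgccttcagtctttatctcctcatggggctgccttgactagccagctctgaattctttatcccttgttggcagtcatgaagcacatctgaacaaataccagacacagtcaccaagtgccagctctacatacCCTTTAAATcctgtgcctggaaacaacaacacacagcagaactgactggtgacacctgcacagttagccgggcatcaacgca

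On either strand, the first run was found in 0.222% of the 32851 promoter windows of the table and the second in 0.469%. The runs were picked from the Scd3 and Scd4 windows themselves, and no other pair of windows was compared. These shares therefore do not show whether runs of this length are unusual between windows. In both windows, and on both strands, 0 matches were found for CCAAT, the letters bound by NF-Y, for the E-boxes CACGTG and CAGCTG, for TATAAA, and for TCACNCCAC, the core of a sterol regulatory element. Over all windows the shares were 37.4%, 7.15%, 16.3%, 13.6% and 1.24%. These searches describe letters only, and nothing about a factor follows from them. For Scd4 they cover few letters before the GENCODE start.

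The rest of the desaturation pathway was described with 6 lists of 83 genes, all of which had a line in the files and 72 of which passed 1 CPM. Of these 72 genes, 0 were higher and 0 lower than both controls by more than 2-fold, against 1.37% and 1.16% of all tested genes. By any amount, 31 were higher and 30 lower than both. The medians of the lists below also moved with the length and GC correction, and each is given with its value after it. Plain library totals in place of TMM factors moved the median of all tested genes by -0.13 against GelMA, so that small differences of either sign are relative to the scaling.

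Other desaturases, listed as Fads1, Fads2, Fads3, Fads6, Degs1 and Degs2, did not show the difference of Scd3 and Scd4. Their median over 6 tested genes was 0.09 against GelMA and 0.06 against TCP, beside 0.03 and 0.04 over all tested genes, and 0.03 and -0.09 after the correction. Fads1, the delta-5 desaturase of polyunsaturated fatty acids, had 58.3 CPM on TCP, 69.7 on GelMA and 69.8 on GelMA-PSS. Fads2, the delta-6 desaturase, had 52.7, 54.6 and 62.1 CPM. Fads6 was near the limit of 1 CPM, with 1.03 CPM on TCP, 0.847 on GelMA and 0.414 on GelMA-PSS, and its difference of -0.39 from GelMA became -0.09 with the correction.

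Among the electron donors, Cyb5a was the highest relative to the controls before the correction. This gene of microsomal cytochrome b5, the donor for the desaturases, had 17.0 CPM on TCP, 21.1 on GelMA and 39.7 on GelMA-PSS, a difference of 1.18 against TCP and 0.88 against GelMA. Its transcript has 833 bases, and the differences corrected for length and GC content were 0.67 and 0.27. Corrected values of Cyb5r4 were 0.11 against TCP and 0.31 against GelMA, the latter above that of Cyb5a. Cyb5b, which encodes the form of the outer mitochondrial membrane, was at -0.34 against TCP and -0.29 against GelMA. The median of the 5 tested donors was 0.14 against GelMA and -0.13 against TCP, and 0.03 and -0.15 after the correction.

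Over 17 tested genes of fatty acid synthesis and elongation the median difference was 0.12 from GelMA and 0.08 from TCP, with 9 higher and 6 lower than both controls. After the correction it was -0.06 and -0.03. Fasn, the gene of fatty acid synthase, had 228 CPM on TCP, 249.8 on GelMA and 141 on GelMA-PSS, with differences of -0.82 against GelMA and -0.68 against TCP. The Fasn transcript has 10050 bases, and the corrected differences were 0.09 and -0.03. Elovl6, which elongates palmitate to the stearate used by the desaturases, had 22.8, 24.6 and 17.2 CPM, and its differences of -0.49 from GelMA and -0.38 from TCP became -0.19 and -0.17 with the correction. Hacd2, the gene of a dehydratase of the elongation cycle, had 11.8, 12.7 and 18.1 CPM.

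Among 16 tested regulators the median was -0.18 against GelMA and -0.17 against TCP, and 9 were lower and 5 higher than both controls. The corrected medians were -0.0019 and -0.10. Srebf1, the gene of SREBP-1, had 121 CPM on TCP, 100.6 on GelMA and 77.7 on GelMA-PSS. Its differences of -0.37 from GelMA and -0.64 from TCP became -0.09 and -0.42 with the correction. Insig2, which retains the SREBP precursor in the endoplasmic reticulum, had 56.4, 59.0 and 87.0 CPM. Ppargc1b, a coactivator, had 9.77, 11.5 and 5.01 CPM, and its differences were -1.06 against GelMA and -0.84 against TCP, or -0.93 and -0.73 after the correction.

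The lists downstream of the desaturases showed no common direction. Over 17 tested genes of acyl activation and glycerolipid synthesis the median was -0.05 against GelMA and 0.10 against TCP, or 0.07 and 0.11 corrected, with Agpat4, an acyltransferase gene, at 0.66 and 0.57 and the acyl-CoA synthetase gene Acsl4 at -0.45 and -0.47. Over 11 tested lipid droplet genes it was -0.09 and 0.18, or -0.13 and -0.16 corrected. Plin3, a droplet coat gene, was at 0.42 and 0.45, and Plin4 was at -0.47 and -1.28, from 8.09 CPM on TCP, 4.16 on GelMA and 2.73 on GelMA-PSS. The corrected differences of Plin4, whose transcript has 5756 bases, were -0.02 and -0.94.

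**Figure D5:**
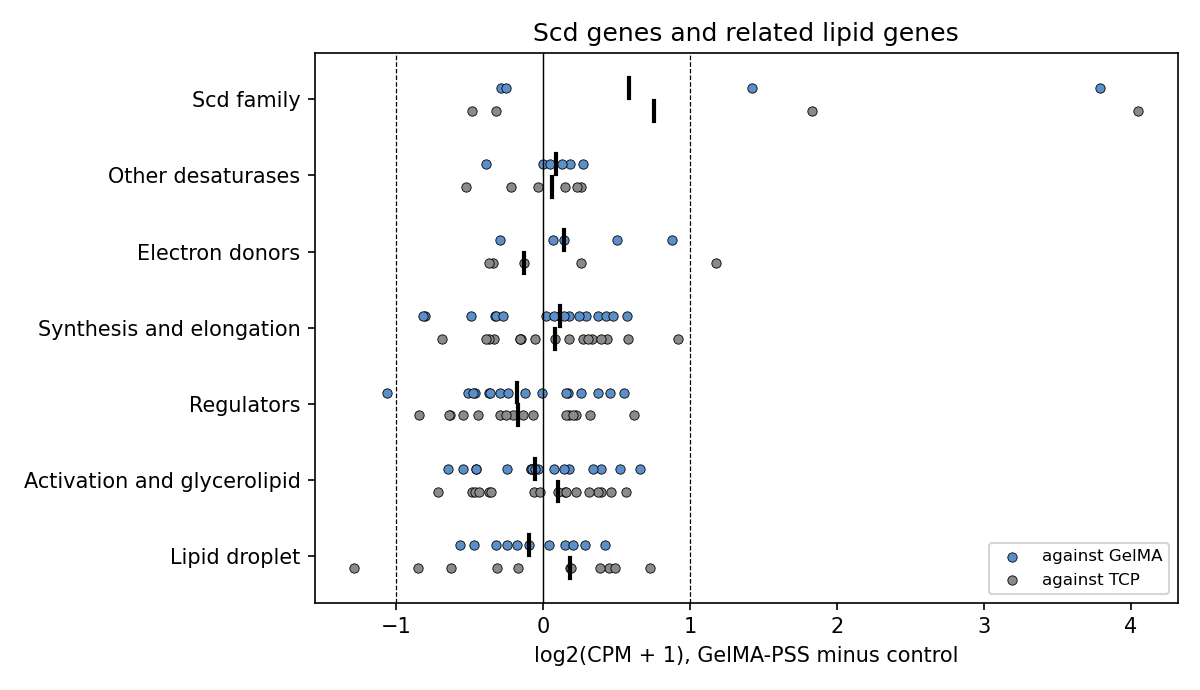
Difference in log2(CPM + 1) of GelMA-PSS from GelMA (blue) and from TCP (gray) for the Scd genes and for the tested genes of 6 related lists, 1 point per gene, with black bars for the medians and dashed lines at 2-fold. Scd3 and Scd4 lie beyond 2-fold against both controls, and 0 of 72 genes of the other lists do.

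Genes with a pattern like that of the members were found by the distance between their pairs of differences, GelMA-PSS against GelMA and against TCP, over the 3 libraries. The closest to Scd4 were 2410017I17Rik, Gm8909 and Serpinb6c, at distances of 0.713, 1.75 and 1.77 on the log2 scale, and 0 genes were within 0.1. 2410017I17Rik on chromosome 17 had 35 counts on TCP, 27 on GelMA and 2341 on GelMA-PSS, and Gm8909, also on chromosome 17, had 309, 232 and 3964. Serpinb6c on chromosome 13 had 215, 73 and 13579 counts. Gm8909 and Serpinb6c belong to gene families with close copies. How far reads of such copies enter their counts was not examined. The patterns of the major members were common ones. Within a distance of 0.1 there were 426 genes for Scd1, with Dhx30, Zfp598 and Ccdc141 the closest, and 232 for Scd2, with Tmem198, Tmem132a and Cngb1 the closest.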

How the data were processed

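RNA-seq was analysed for 3 c2c12 libraries, 1 per substrate, grouped by the substrate in the labels. Values were gene-level counts as the authors deposited them, not normalized and labelled by gene symbol. The methods state strand-specific paired-end reads from a TruSeq kit, the labels name a SMARTER kit, and the submitters' processing notes name TopHat, edgeR, mm10 and hg19 without roles, whereas the counting tool and annotation are not given in the sources used here. If reads with several matches were dropped or assigned at random, counts of paralogs would be affected. Lines sharing a symbol were summed (35 symbols, 23282 lines). The TCP library held 119799095 counts, the GelMA library 87071144 and the GelMA-PSS library 192171443, with TMM factors of 1.02, 1.04 and 0.943 (edgeR 4.0.16). For changed genes, the study's methods state FPKM values and a 2-fold change, and its results text states 1.5-fold. Here CPM was used with a pseudocount of 1 and a 2-fold threshold, and 1.5-fold was an alternative. With 1 library per group no p-value was computed. Wilson and exact binomial intervals at 95% came from scipy 1.17.1. Transcript length and GC content (GENCODE vM21) were matched for 22197 symbols directly and 650 through older symbols, and 391 were not matched. The loess correction (statsmodels 0.14.6) had a span of 0.3. Identity was computed on coding sequences aligned with Biopython 1.88, in place of the proteins planned. The scripts were tested on simulated data. The members and lists were chosen with earlier results of these data known. The text names all members, 5 neighbours on each side, the 2 genes of each list with the largest difference from the nearer control, Srebf1, Fasn, Fads1, Fads2 and Elovl6, and the 3 genes most like Scd4, Scd1 and Scd2. Alternatives covered scaling, pseudocount, filter, fold threshold, the correction for length and GC content, and how shares were formed.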

Additional observations from a re-analysis of the deposited data

How the results depend on the processing

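The differences of Scd3 and Scd4 between GelMA-PSS and each control kept their direction and stayed beyond 2-fold under every scaling, with a pseudocount of 0.1 CPM and with the length and GC correction, from 1.28 to 1.49 for Scd3 against GelMA, 1.73 to 1.94 against TCP, and for Scd4 from 3.66 to 4.21 and 3.95 to 4.58. With a threshold of 4-fold, 1 member, Scd4, was higher than both controls. For Scd1 and Scd2 against the controls, 1 sign turned, Scd2 against GelMA with the length and GC correction (0.07), and between GelMA and TCP that of Scd1 turned with plain totals (0.00232). For the summed family, plain totals gave -0.34 from GelMA to GelMA-PSS, -0.46 from TCP to GelMA-PSS and -0.12 from TCP to GelMA, and upper-quartile factors gave -0.21 for the first and -0.15 for the last.

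Over all tested genes, 180 were higher and 153 lower than both controls, 54.1% of the calls higher. Plain totals gave 97 and 261 (27.1% higher), a pseudocount of 0.1 CPM 259 and 294, with 319 genes apart between GelMA and TCP against 132, and the length and GC correction 57 and 82 (41.0% higher). At 1.5-fold there were 1064 higher, 946 lower and 740 apart between the controls, and at 4-fold 7, 4 and 8.

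Counts per kilobase changed the shares within the family but not their order in any library. Scd1 then took 35.3% on TCP, 38.2% on GelMA and 35.0% on GelMA-PSS, Scd2 63.8%, 60.5% and 56.6%, Scd3 0.709%, 1.08% and 3.39%, and Scd4 0.162%, 0.236% and 5.05%. Without Scd4 in the total, the GelMA-PSS shares were 34.5% for Scd1, 63.1% for Scd2 and 2.42% for Scd3. No paired analysis was possible because each substrate has 1 library. Depth limits the Scd4 values of the controls most, with 221 and 216 counts. The cause of the changes with a setting was not tested.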
